A study of Mus musculus with 19 samples.

Results

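The translation initiation and elongation factor genes were followed in OT-I CD8 T cells, which carry a transgenic T cell receptor, after transfer into irradiated B6 mice. They were taken as the probe sets whose single gene symbol begins with Eif or Eef, without the sex-linked pair Eif2s3x and Eif2s3y. The rule gave 64 probe sets of 47 genes, among 8251 genes with a symbol of their own on the array. RNA of the transferred cells, recovered from lymph node or spleen, was measured on 19 arrays. Of these, 8 arrays are titled day 5 after transfer into irradiated hosts, 4 are day 40 and 3 are day 115. The other 4 arrays, titled nrd, hold OT-I cells that had been put into unirradiated hosts. Sorting was at day 6 for the unirradiated hosts and, per the descriptions, also for the group titled day 5. Unirradiated hosts were not sampled at day 40 or day 115, where the irradiated host and the time since transfer cannot be told apart. The labels give neither age nor sex nor how many mice stand behind a sample, and for day-5 arrays 1 and 2 the description leaves the cell type out. P-values therefore measure only the spread between samples, which may be technical.

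Initiation factors bring the initiator tRNA and the small ribosomal subunit to the capped end of an mRNA and move them to the start codon. Elongation factors then bring in each aminoacyl-tRNA and move the ribosome along. Lymphocytes that leave quiescence are known to raise protein synthesis, and control falls largely on eIF2 and its exchange factor eIF2B, on the cap-binding protein eIF4E and its inhibitors, and on eEF2 through its kinase. Many mRNAs of the translation machinery begin with a run of pyrimidines, the terminal oligopyrimidine element, through which their translation follows mTOR.

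The promoter windows of 4 factors are shown as the holders of TATAAA (Eef2), of the run at the start (Eif3f) and of the longer run (Eif3l, 1 of 9), with Eef1a1 as an elongation factor without a match. Each runs from 60 bases before to 30 bases from the transcription start annotated by RefSeq on GRCm38.p6, 5′ to 3′ on the gene's strand. Capitals mark TATAAA before the start, or a C followed by at least 4 further C or T at the start or by at least 7 within the first 50 transcribed bases.
Eef2, chr10:81176571-81176660, plus strand: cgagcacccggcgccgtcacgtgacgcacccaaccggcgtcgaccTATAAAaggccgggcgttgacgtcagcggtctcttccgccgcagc
Eef1a1, chr9:78481695-78481784, minus strand: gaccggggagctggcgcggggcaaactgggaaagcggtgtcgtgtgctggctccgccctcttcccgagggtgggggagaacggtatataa
Eif3f, chr7:108934355-108934444, plus strand: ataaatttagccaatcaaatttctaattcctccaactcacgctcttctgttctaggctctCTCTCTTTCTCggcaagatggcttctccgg
Eif3l, chr15:79075163-79075252, plus strand: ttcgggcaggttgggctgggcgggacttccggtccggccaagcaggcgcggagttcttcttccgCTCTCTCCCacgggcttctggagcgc

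Of the 47 genes, 39 had a promoter entry. TATAAA stood in the 50 bases before the start in 1 of them, Eef2 (2.56%, against 3.15% of 27025 genes). The pyrimidine run at the start itself was in 1, Eif3f (2.56%), against 3.01% of all genes and 22.6% of 53 ribosomal protein genes. The longer run, a C with at least 7 C or T after it beginning anywhere in the first 50 transcribed bases, was in 9 (23.1%), against 15.4% of all genes and 69.8% of the ribosomal protein genes. Its 9 holders were Eef1a2, Eef2k, Eif2b2, Eif3a, Eif3f, Eif3k, Eif3l, Eif4enif1 and Eif5a. CCGGAAGT, on either strand between 250 bases before and 50 after the start, was in 8 (20.5%), against 4.31% of all genes and 18.9% of the ribosomal protein genes, and these were Eef1b2, Eif2ak1, Eif2b2, Eif2b4, Eif3d, Eif3l, Eif4e2 and Eif5a. The pyrimidine runs can overlap each other, and a match describes letters only. Each search is placed by the annotated start, whose accuracy was not tested. Where transcription begins elsewhere, a run at the start can be missed or wrongly counted, so these shares do not settle which factors carry the element.

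Array medians lay between 49.6 and 53.7 signal units. A probe set was tested where its mean signal exceeded the 30th percentile, 26.4 units, which 8695 did. Among the factors 55 probe sets of 43 genes passed, while Eef1g, Eif2ak3, Eif2ak4 and Eif4ebp1 did not. The arrays fall into 2 clusters by correlation. Cluster 1 holds all 3 arrays of day 115, arrays 1 to 3 of day 5 and arrays 1 and 2 of day 40. Cluster 2 holds arrays 4 to 8 of day 5, arrays 3 and 4 of day 40 and all 4 of the unirradiated hosts. Day 115 and the unirradiated hosts thus share no cluster, and a difference between them with the cluster as a term rests on the split within day 5 and day 40. Each result is given on groups alone and with that term. The 5 most alike pairs of arrays (correlations of 0.989 to 0.994) were all of the same group and of adjoining numbers, and the labels do not say whether such pairs share cells.

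In these bulk samples, fewer cells of a type and less RNA per cell cannot be told apart. CD8 T cell markers, 8 of 8 above the filter, summed to 9236 to 15447 at day 5, 8795 to 14843 at day 40, 11035 to 12263 at day 115 and 8955 to 10485 in unirradiated hosts. B cell markers, 10 of 12 above the filter, summed to 1397 to 2974, 1748 to 3461 and 2821 to 4415 at the 3 days, and to 1184 to 1381 in unirradiated hosts. Plasma cell markers, 5 of 6 above it, reached 954 to 1249 at day 115, against 268 to 409 in unirradiated hosts. They summed to 268 to 452 at day 5 and 363 to 898 at day 40. Myeloid markers, 5 of 8 above it, summed to 925 to 1667 at day 115, against 2423 to 3196 in unirradiated hosts. Their sums spanned 1392 to 3025 at day 5 and 1408 to 3032 at day 40. Erythroid markers, 4 of 4, summed to 269 to 2530.1 at day 5, 387 to 1007 at day 40 and 495 to 1279.8 at day 115, against 235 to 318 in unirradiated hosts. Neutrophil markers, 5 of 6, summed to 319 to 359 at day 115, against 283 to 339 in unirradiated hosts. At day 5 they summed to 272 to 528, and at day 40 to 307 to 422. Markers of dividing cells, 10 of 10, spanned 1954 to 4919 at day 5, 1282 to 1455 at day 40, 1192 to 1433 at day 115 and 1324 to 1879.6 in unirradiated hosts. No marker was at 0, since the lowest signal on any array was 7.68. On every array of day 115 the CD8 T cell, B cell, plasma cell and erythroid sums lay above those of all unirradiated hosts. The myeloid sums of day 115 lay below those of all unirradiated hosts. The B cell sums of day 5 and day 40 and the erythroid sums of day 40 also lay above those of all unirradiated hosts. So did the sums for dividing cells at day 5. The part of such cells in the changes of any day was not tested.

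Against unirradiated hosts, more factor transcripts passed the test at day 115 than at day 5 or day 40. At day 5, 0 of the 55 probe sets passed the threshold, an adjusted p under 0.05 in limma, where the background was 0.794% of all tested probe sets; 12 had an unadjusted p under 0.05. With the cluster as a term 0 passed (background 1.61%), and 8 had an unadjusted p under 0.05. Within cluster 2 also 0 passed (background 2.38%), and 11 had an unadjusted p under 0.05. Every background share is of probe sets past the adjusted threshold. It is no measure for the counts at an unadjusted p, for which no share over all tested probe sets is given. At day 40, 1 rose (background 1.50%), that of Eef2, as it did with the term (background 2.23%). At day 115, 27 passed, 16 higher and 11 lower (49.1%, background 27.9%; 15.1% higher and 12.8% lower). These were 14 genes that rose and 9 that fell, of 43, counting each gene by its brightest tested probe set. Without day-115 array 2, 17 probe sets passed. The share of all tested probe sets in that fit is not given, so this drop is not set against a background. The median difference of the 55 was -0.03 on the log2 scale, beside 0.01 for all tested probe sets. With the cluster as a term, 1 of the 27, Eef2, passed (background 4.42%). Differences are of log2(signal + 16), given with their SE, and understate the change of dim genes.

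**Figure D1:**
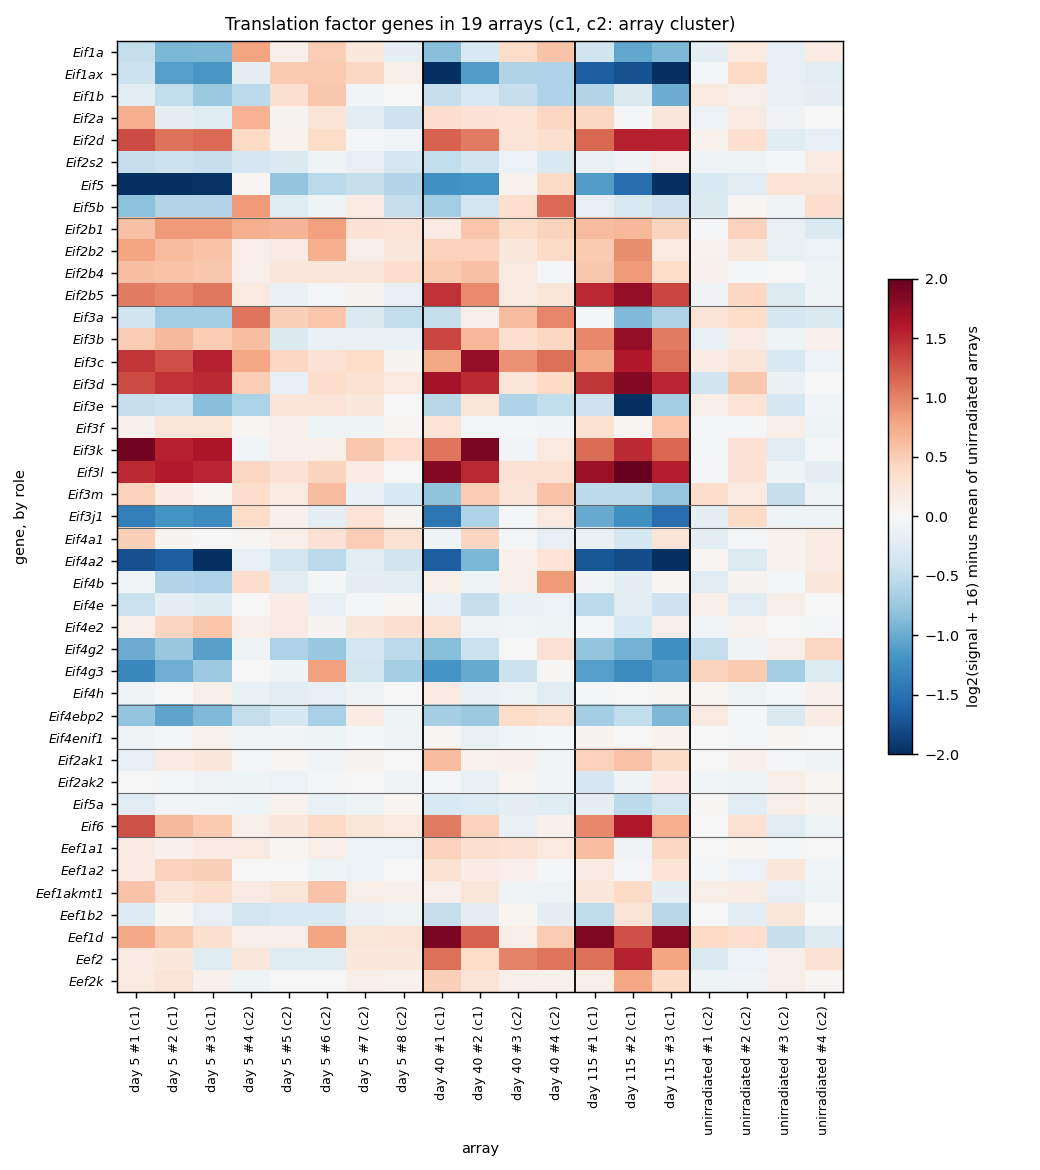
Level of each tested factor gene (rows, by role, brightest tested probe set) on every array (columns), as log2(signal + 16) minus its mean in unirradiated hosts, with c1 and c2 naming the array cluster. Eif3l and Eif3d are high and Eif4a2 and Eif5 low at day 115 and also on the cluster 1 arrays of day 5 and day 40, while Eef2 is high on the day-40 and day-115 arrays of either cluster.

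Eef2, the GTPase that moves the ribosome by 1 codon, was higher at day 40 and day 115 than in either of the other groups. Its signal was 977, 1327 and 1363 (lowest, median and highest) at day 5. It was 2512, 1495, 2327 and 2465 at day 40, 2499, 3390.0 and 2012 at day 115, and 949, 1070.4, 1259 and 1423 in unirradiated hosts. All 7 arrays of the late days lay above all 12 others, and day 5 overlapped the unirradiated hosts. The rise over unirradiated hosts was 0.88 ± 0.21 at day 40 (adjusted p = 0.0397; 0.93 with the cluster term, adjusted p = 0.0241) and 1.14 ± 0.23 at day 115 (adjusted p = 0.00278; 1.23 under the cluster term, adjusted p = 0.0159), or 1.84-fold and 2.20-fold. Over day 5 it was 0.84 ± 0.18 at day 40 (adjusted p = 0.0249) and 1.10 ± 0.20 at day 115 (adjusted p = 0.00234), and 0.86 and 1.16 under the cluster term (adjusted p = 0.00583 and 0.00253). The 2 clusters of day 5 averaged 1213 and 1203, a difference of 0.02 on the log2 scale. Within cluster 2, which holds no day-115 array, day 40 exceeded the unirradiated hosts by 1.03 ± 0.20 (adjusted p = 0.0140) and day 5 by 1.00 ± 0.19 (adjusted p = 0.0130). Within cluster 1 Eef2 did not pass, with 0.68 ± 0.29 at day 40 against day 5 (adjusted p = 0.614) and 1.09 ± 0.26 at day 115 against day 5 (adjusted p = 0.0700).

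Both day-115 calls of Eef2 held whichever array was left out, and those of day 40 did not. Against unirradiated hosts the day-40 call was lost without day-40 array 1, 3 or 4 or without any 1 of the 4 unirradiated hosts, with differences of 0.79 to 0.98 and adjusted p up to 0.143. Against day 5 it was lost without day-40 array 1, 3 or 4 or day-5 array 5 (0.77 to 0.81, adjusted p up to 0.139).

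Among the other elongation genes, Eef1d, a subunit of the exchange factor that reloads eEF1A with GTP, also rose at day 115. It had 1125, 746 and 1082 signal units at day 115, against 396, 377, 211 and 245 in unirradiated hosts, and the groups did not overlap. The rise was 1.65 ± 0.33 (3.15-fold, adjusted p = 0.00267) and held without any 1 array, but with the cluster term it was 1.08 ± 0.34 and outside the threshold (adjusted p = 0.0743). Day 40 spanned 326 to 1142, with its cluster 1 arrays at 1142 and 694 and its cluster 2 arrays at 326 and 429.

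Eef2k, the kinase that inhibits eEF2, differed by 0.43 ± 0.13 at day 115 against unirradiated hosts (adjusted p = 0.0202; 0.23 under the cluster term, adjusted p = 0.352). Its arrays stood at 41.0, 74.7 and 53.0 at day 115 and 33.9 to 42.1 in unirradiated hosts, so the groups overlapped, and without day-115 array 2 the difference was 0.25 (adjusted p = 0.126). Eef1a1, which delivers aminoacyl-tRNA, reached 13242, 8311 and 11644 at day 115, against 8689, 9012, 8478 and 8779 in unirradiated hosts (0.31 ± 0.14, adjusted p = 0.10). The groups overlapped through day-115 array 2. Its tissue-restricted paralogue Eef1a2, the exchange factor subunit gene Eef1b2 and the eEF1A methyltransferase gene Eef1akmt1 differed by 0.13, -0.27 and 0.15 and passed in no comparison. Of 7 tested elongation genes, 3 rose and none fell at day 115 against unirradiated hosts (background 15.1% higher and 12.8% lower), and 1 rose with the cluster term (background 4.42%).

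**Figure D2:**
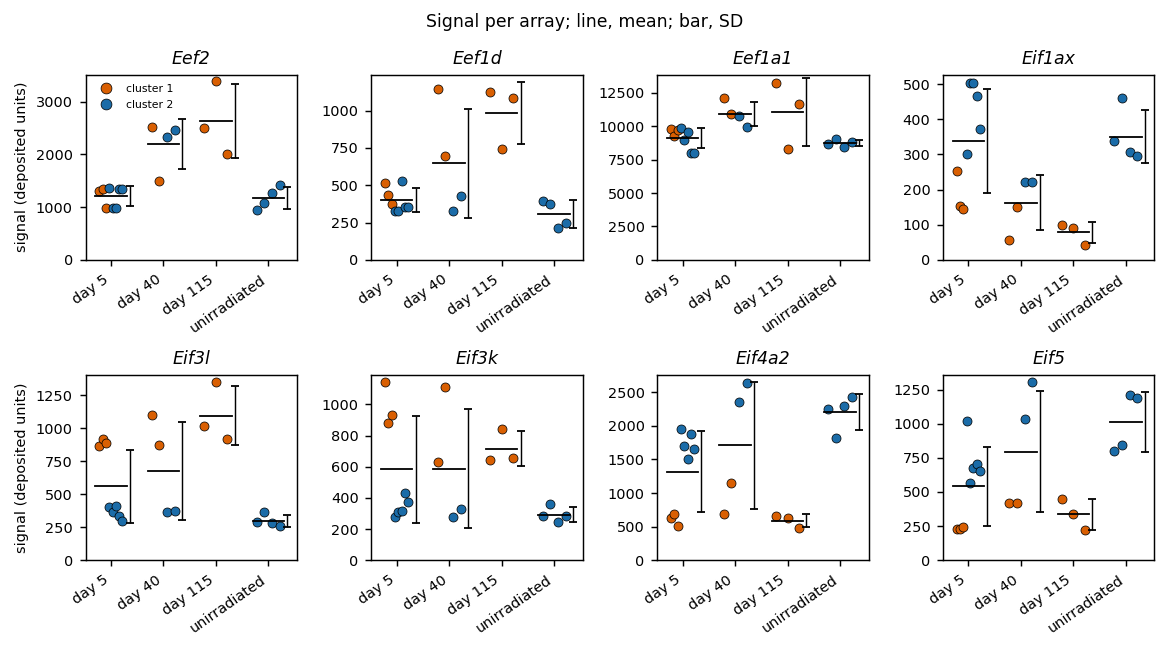
Signal of 8 factor genes on each array (points, coloured by array cluster), with group means (lines) and SD (bars) on linear axes, for day 5, day 40, day 115 and unirradiated hosts from left to right. Eef2 separates by day with both clusters mixed, whereas Eif3l, Eif3k, Eif4a2 and Eif5 separate by cluster at day 5 and day 40.

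Genes for start-site selection and initiator tRNA included 1 of 8 that rose and 2 that fell at day 115 against unirradiated hosts, and 3 of 8 is near the background of 27.9%. Eif1ax encodes an eIF1A, which keeps the scanning ribosome open. It had 99.5, 92.2 and 42.9 signal units at day 115, against 338, 459.6, 306 and 296 in unirradiated hosts, with no overlap. The fall was 2.00 ± 0.45 on the log2 scale (adjusted p = 0.00518) and held in each leave-out, while with the cluster term the difference was -0.85 ± 0.35 (adjusted p = 0.163). The dimmer probe set of Eif1ax differed by -0.70 (adjusted p = 0.107), and the closely related gene Eif1a by -0.78 and -0.27 in its 2 probe sets (adjusted p = 0.125 and 0.191). Probes of the eIF1A genes may cross-match, which was not tested.

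Eif5, the GTPase activator of eIF2, had 448, 337 and 223 units at day 115, against 798, 844, 1208 and 1191 in unirradiated hosts. The groups did not overlap and the fall was 1.57 ± 0.51 (adjusted p = 0.0282), but the difference was -0.06 with the cluster term (adjusted p = 0.911). At day 5 the cluster 1 arrays averaged 233 and the cluster 2 arrays 725. The call of Eif5 was lost without day-115 array 2 or 3 or array 3 or 4 of the unirradiated hosts (-1.60 to -1.32, adjusted p of 0.0647 to 0.113).

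Eif2d, a factor that can place tRNA on the small subunit and also acts in recycling, had 105, 144 and 144 units at day 115, against 40.9, 52.5, 30.3 and 32.7 in unirradiated hosts. It rose by 1.42 ± 0.32 with no overlap (adjusted p = 0.00545; 0.46 under the cluster term, adjusted p = 0.136), and its dimmer probe set by 0.20 (adjusted p = 0.0433), a call lost without any 1 day-115 array or array 2, 3 or 4 of the unirradiated hosts (adjusted p up to 0.0993). Eif1b, Eif2a, Eif2s2, which encodes the beta subunit of eIF2, and Eif5b differed by -0.62, 0.20, -0.03 and -0.30 and did not pass.

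All 4 measured subunits of eIF2B, the exchange factor that recharges eIF2 and is blocked by phosphorylated eIF2, rose at day 115 against unirradiated hosts (background 15.1% higher). The catalytic subunit Eif2b5 had 193, 229.9 and 168 units, against 53.3, 81.2, 44.5 and 53.7, and the groups did not overlap. Its rise of 1.53 ± 0.34 (2.89-fold, adjusted p = 0.00495) held in every leave-out, and a second probe set rose by 0.52 (adjusted p = 0.00842). Eif2b1, Eif2b2 and Eif2b4 differed by 0.58, 0.54 and 0.58 (adjusted p = 0.0267, 0.0404 and 0.0157). Eif2b1 and Eif2b2 overlapped between groups. Each of these 3 calls was lost without day-115 array 2 (0.54, 0.35 and 0.45, adjusted p = 0.0769, 0.196 and 0.0771), that of Eif2b1 also without day-115 array 1 or array 1, 3 or 4 of the unirradiated hosts (adjusted p up to 0.0851), and that of Eif2b2 without the same arrays (adjusted p up to 0.0937). With the cluster term, the 4 differences were 0.46, 0.23, 0.19 and 0.51 for Eif2b1, Eif2b2, Eif2b4 and Eif2b5, and 0 of 4 passed in limma, 1 of them with an unadjusted p under 0.05.

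Of 9 tested subunits of eIF3, the scaffold that joins the small subunit to the mRNA, 4 rose and 1 fell at day 115 against unirradiated hosts (background 15.1% higher and 12.8% lower). These 9 leave out Eif3j1, which fell as well. Eif3l had 1019, 1348 and 916 units, against 292, 367, 278 and 261, with no overlap. It rose by 1.81 ± 0.43 (3.50-fold, adjusted p = 0.00684), which held in each leave-out, and by 0.50 ± 0.20 with the cluster term (adjusted p = 0.144). At day 5 the same gene stood at 868, 921 and 884 on the cluster 1 arrays and at 298 to 412 on the cluster 2 arrays.

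Eif3d, whose product can bind the cap itself, and Eif3b, a core subunit, rose by 1.60 ± 0.41 and 1.25 ± 0.29 (adjusted p = 0.0103 and 0.00596; 0.39 and 0.66 under the cluster term). Neither overlapped between the groups and both calls held in each leave-out, but a dimmer probe set of Eif3b differed by -0.20 (adjusted p = 0.235). Eif3c rose by 1.15 ± 0.35 (adjusted p = 0.0211; 0.39 under the cluster term) and lost its call without day-115 array 2 or 3 or array 3 of the unirradiated hosts (0.93 to 1.18, adjusted p up to 0.0927). Within cluster 2, Eif3c at day 40, at 514 and 584 units, exceeded the unirradiated hosts, at 299, 317, 211 and 241, by 1.01 ± 0.20 (adjusted p = 0.0177). There, 2 of the 55 factor probe sets rose, those of Eef2 and Eif3c (background 3.07%).

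The counted subunit that fell at day 115 was Eif3e, with 240.3, 48.1 and 196 units, against 353, 397, 255 and 314 in unirradiated hosts. Its difference of -1.17 ± 0.38 (adjusted p = 0.0302; -0.92 under the cluster term) rested on day-115 array 2, without which it was -0.55 (adjusted p = 0.209), and the call was also lost without unirradiated array 1, 2 or 4 (adjusted p up to 0.0674). The dimmer probe set of Eif3e differed by 0.03. Eif3j1, the loosely bound j subunit, was left out of the eIF3 count only because the role list names Eif3j and not Eif3j1. It had 172, 146 and 115 units at day 115, against 314, 475, 338 and 340.3 in unirradiated hosts, a difference of -1.25 ± 0.44 (adjusted p = 0.0409) that turned to 0.046 with the cluster term (adjusted p = 0.926). Its call was lost whichever of the 7 arrays was left out (adjusted p up to 0.127). Eif3f differed by 0.30 ± 0.12 without passing (adjusted p = 0.0712). Eif3k differed by 1.25 ± 0.48 without passing (adjusted p = 0.0606) and by -0.22 under the cluster term, although its 645, 844 and 658 units at day 115 did not overlap 282, 358, 244 and 283 in unirradiated hosts.

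**Figure D3:**
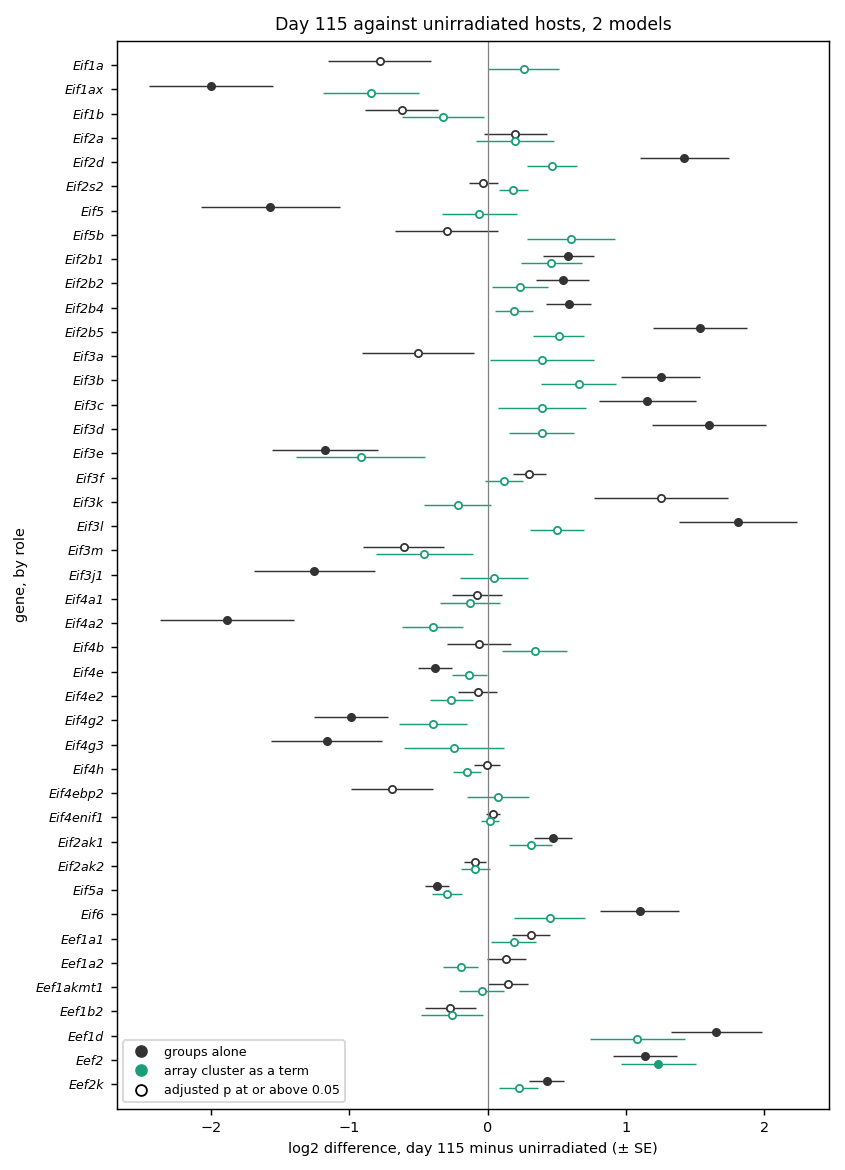
Log2 difference between day 115 and unirradiated hosts (x axis, bars ± SE) for each tested factor gene by role, from groups alone (dark) and with array cluster as a term (green); filled points have an adjusted p under 0.05. On groups alone 23 genes are filled, 14 to the right and 9 to the left, and under the cluster term Eef2 is the only filled gene.

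Of 8 tested cap-binding and helicase genes, 4 fell and none rose at day 115 against unirradiated hosts (background 15.1% higher and 12.8% lower). Eif4a2, a form of the eIF4A helicase, had 656, 626 and 477 units, against 2255, 1814, 2289.5 and 2436, and the groups did not overlap. It fell by 1.88 ± 0.48 (adjusted p = 0.0103), which held in each leave-out, and differed by -0.40 ± 0.22 with the cluster term (adjusted p = 0.296). On the cluster 1 arrays of day 5 it averaged 609.5, against 1738 on the cluster 2 arrays. The other helicase gene, Eif4a1, differed by -0.08 (adjusted p = 0.773), and its sole probe set has the letter code _r, explained below.

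Eif4g2, a scaffold used in cap-independent initiation, and Eif4g3, a cap-dependent scaffold, fell by 0.98 ± 0.27 and 1.16 ± 0.40 with no overlap (adjusted p = 0.0130 and 0.0376; differences of -0.39 and -0.25 under the cluster term). The call of Eif4g2 was lost without day-115 array 3 (-0.86, adjusted p = 0.0570). That of Eif4g3 was lost without any 1 day-115 array or array 1, 2 or 4 of the unirradiated hosts (adjusted p up to 0.0956). Eif4e, the cap-binding protein, had 19.2, 27.7 and 21.7 units at day 115, against 38.2, 27.5, 39.0 and 33.9 in unirradiated hosts, and the groups overlapped. Its difference of -0.38 ± 0.12 (adjusted p = 0.0299; -0.13 under the cluster term) lies near the filter level. The call was lost without day-115 array 1 or 3 or array 1, 3 or 4 of the unirradiated hosts (adjusted p up to 0.115).

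Probe sets of Eif4b, the helicase cofactor, disagreed. The brightest differed by -0.06 at day 115 against unirradiated hosts (adjusted p = 0.864), another by -1.85 ± 0.58 (adjusted p = 0.0261; -0.13 under the cluster term) and the dimmest by 0.02. The probe set that fell had 80.5, 72.7 and 63.9 units at day 115, against 189, 252, 361 and 472, and also 77.2, 74.7 and 80.7 on the cluster 1 arrays of day 5. Its call was lost without any 1 day-115 array or array 3 or 4 of the unirradiated hosts (adjusted p up to 0.0747). Letter codes such as _r in a probe set's name mark probes designed under relaxed rules or matching related transcripts.

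Among the inhibitors of eIF4E, Eif4ebp2 also had unlike probe sets. The brightest differed by -0.69 ± 0.30 at day 115 against unirradiated hosts (adjusted p = 0.0880; 0.08 under the cluster term). The next in brightness had 212, 168 and 182 units against 291, 295, 329.6 and 301, a difference of -0.66 ± 0.14 without overlap (adjusted p = 0.00460; -0.44 under the cluster term, adjusted p = 0.0893). The dimmest differed by -0.02. Eif4enif1, which carries eIF4E to the nucleus, differed by 0.04.

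Of the kinases that phosphorylate eIF2, the heme-regulated Eif2ak1 rose by 0.47 ± 0.14 at day 115 against unirradiated hosts (adjusted p = 0.0177; 0.31 under the cluster term), with 149, 163 and 141 units against 105, 112, 102 and 98.4. The groups did not overlap, and without day-115 array 2 the difference was 0.42 (adjusted p = 0.0625). Eif2ak2, the kinase activated by double-stranded RNA, differed by -0.09 (adjusted p = 0.421).

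Eif6, which keeps the large subunit from joining too early, had 265, 420.0 and 220.3 units at day 115, against 129, 160.5, 108 and 118 in unirradiated hosts. It rose by 1.10 ± 0.29 with no overlap (adjusted p = 0.0110; 0.45 under the cluster term), and by 0.84 without day-115 array 2 (adjusted p = 0.0620). Eif5a, the factor that carries hypusine and eases difficult peptide bonds, had 32.4, 22.4 and 26.8 units, against 40.4, 31.7, 44.9 and 41.5. It fell by 0.37 ± 0.09 although the groups overlapped (adjusted p = 0.00768; -0.29 under the cluster term, adjusted p = 0.127), and the call held in each leave-out. Over all roles, 10 of the 23 genes called at day 115 kept the call whichever of the 7 arrays was left out. They were Eef1d, Eef2, Eif1ax, Eif2b5, Eif2d, Eif3b, Eif3d, Eif3l, Eif4a2 and Eif5a.

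Between the irradiated days, day 115 against day 5 gave 12 of 55 probe sets past the threshold, 9 higher and 3 lower (background 13.9%; 8.23% higher and 5.62% lower), and with the cluster term 8, 5 higher and 3 lower (background 14.3%; 7.23% higher and 7.10% lower). The share was 21.8% on groups alone and, with the term, 14.5%, near the background. Without day-115 array 2 the count on groups alone was 4, a drop that again has no background share beside it. On groups alone these were 10 genes, of which Eef1d, Eef2 and Eif1ax kept the call in all 11 leave-outs and 7 lost it in some. Eif1ax had 99.5, 92.2 and 42.9 units at day 115, against 145, 337 and 504 (lowest, median and highest) at day 5, with no overlap. It fell by 1.84 ± 0.40 (adjusted p = 0.00629), and its difference was -1.12 ± 0.28 under the cluster term (adjusted p = 0.0134). Within cluster 1, where 3 day-115 arrays meet 3 day-5 arrays, it differed by -1.10 ± 0.34 (adjusted p = 0.123). The dimmer probe set of Eif1ax averaged 53.8 units at day 115, against 74.0 on all day-5 arrays and 48.65 on those of cluster 1.

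Eef1d at day 115 exceeded day 5, which had 326, 367 and 528 units, by 1.26 ± 0.29 with no overlap (adjusted p = 0.00926; 0.90 under the cluster term, adjusted p = 0.0354; 1.12 within cluster 1, adjusted p = 0.0582). Eif2b5 and Eif3b rose by 1.16 and 1.06 (adjusted p = 0.0166 and 0.0113), and by 0.53 and 0.69 under the cluster term (adjusted p = 0.0248 and 0.0410). The dimmer Eif2b5 probe set rose by 0.45 (adjusted p = 0.0153; 0.25 under the cluster term, adjusted p = 0.0626; 0.39 without day-115 array 2, adjusted p = 0.0819). That of Eif3b went the other way, averaging 37.4 units at day 115 against 42.2 at day 5. The calls of the brightest probe sets on groups alone were lost without day-115 array 2 (1.05 and 0.80, adjusted p = 0.0817 and 0.0886). Within cluster 1 alone, 0 of 55 passed in limma (background 1.28%), and 13 had an unadjusted p under 0.05.

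The remaining calls at day 115 against day 5 fell on factors of several roles. Eif2s2 had 33.4, 36.2 and 43.9 units at day 115, against 23.9, 27.4 and 35.7 (lowest, median and highest) at day 5, with overlap. It rose by 0.29 ± 0.09 (adjusted p = 0.0472) and by 0.42 ± 0.08 under the cluster term (adjusted p = 0.00389). Its call on groups alone was lost without any 1 day-115 array or day-5 array 1 to 5 or 8 (0.21 to 0.35, adjusted p up to 0.209). Eef2k, Eif2ak1 and Eif2d rose by 0.35, 0.45 and 0.89 (adjusted p = 0.0471, 0.0199 and 0.0444) and did not pass under the cluster term. Without day-115 array 2 these were 0.17, 0.40 and 0.82 (adjusted p = 0.325, 0.0887 and 0.150). The calls were also lost without day-115 array 1 for Eif2ak1 and Eif2d, without day-115 array 3 for Eef2k and Eif2d, and without any 1 of day-5 arrays 4 to 8 for Eef2k and Eif2d. Eif5a fell by 0.30 ± 0.08 (adjusted p = 0.0165; -0.26 under the cluster term, adjusted p = 0.0535; -0.22 without day-115 array 2, adjusted p = 0.117). The next-brightest probe set of Eif4ebp2 fell by 0.53 ± 0.13 (adjusted p = 0.0115; -0.39 under the cluster term, adjusted p = 0.0339; -0.46 without day-115 array 2, adjusted p = 0.0662). With the term Eif4e2, a cap-binding homologue that represses translation, differed by -0.43 ± 0.12 (adjusted p = 0.0294).

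Day 40 against day 5 gave 1 of 55 past the threshold on groups alone, Eef2 (background 1.25%), and 6 with the cluster term, 4 higher and 2 lower (background 7.48%; 5.14% higher and 2.33% lower). Within cluster 1 alone, 0 passed in limma (background 0.0115%), with 3 at an unadjusted p under 0.05. Within cluster 2 alone 2 passed, Eef2 and Eif1ax (background 5.66%). The 4 were Eef2, Eif5, Eif4a2 and Eif4b, and the 2 were Eif1ax and a dimmer probe set of Eif4e2. Eif5 had 421 and 423 units on the cluster 1 arrays of day 40 against 227, 230.4 and 240.1 on those of day 5. On the cluster 2 arrays it had 1038 and 1304 at day 40 against 568 to 1019.8 at day 5. In both clusters every day-40 array lay above every day-5 array. The difference under the cluster term was 0.75 ± 0.17 (adjusted p = 0.0127), beside 0.82 within cluster 1 and 0.70 within cluster 2 (adjusted p = 0.452 and 0.0933).

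Eif4a2 showed the like, at 683 and 1151 units in cluster 1 and 2356 and 2644 in cluster 2 at day 40. The day-5 arrays held 635, 684 and 509.5 in cluster 1, which overlap those of day 40, and 1502 to 1951 in cluster 2, which do not. The difference was 0.53 ± 0.14 under the cluster term (adjusted p = 0.0262), 0.54 within cluster 1 and 0.52 within cluster 2 (adjusted p = 0.693 and 0.0549). Eif1ax differed by -0.85 ± 0.22 under the cluster term (adjusted p = 0.0242), -0.81 within cluster 1 and -0.88 within cluster 2 (adjusted p = 0.659 and 0.0320). The dimmer probe set of Eif1ax went the other way. It averaged 58.6 units at day 40 against 48.65 at day 5 in cluster 1, and 134 against 89.2 in cluster 2. Eif4b and the dimmer Eif4e2 probe set differed by 0.50 and -0.29 under the cluster term (adjusted p = 0.0480 and 0.0465). Whether the difference between day 40 and day 5 itself differed between clusters was tested as an interaction in limma. In that test 0 of 55 factor probe sets passed, and 0 of all 8695 tested probe sets did. Among the 55, 3 had an unadjusted p under 0.05. The result is thus not particular to the factors, and it does not show that the change was alike in both clusters.

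**Figure D4:**
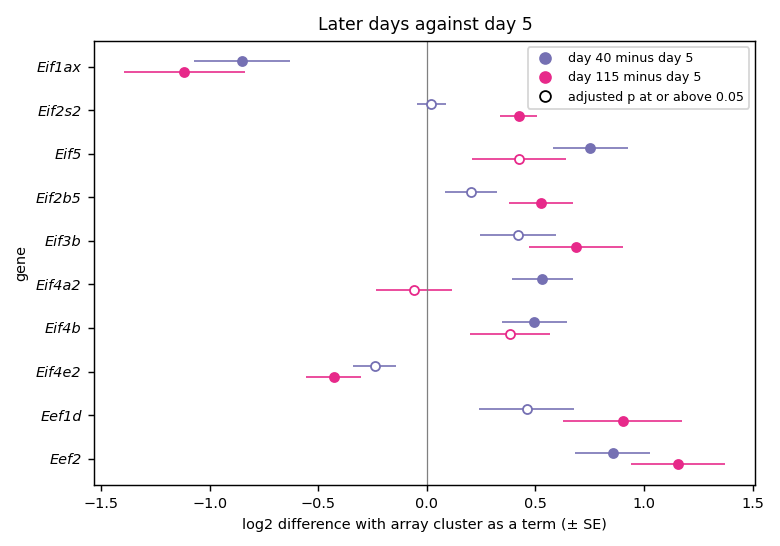
Log2 difference from day 5 (x axis, ± SE) at day 40 and day 115, with array cluster as a term, for 10 of the 11 genes called in either comparison with the term (Eif4ebp2, called by a dimmer probe set, is not drawn); each is drawn by its brightest tested probe set, and filled points have an adjusted p under 0.05. Eef2 and Eif1ax are filled at both days, Eef2 to the right and Eif1ax to the left of 0. The dimmer probe set of Eif1ax, not drawn, averaged higher at day 40 than at day 5 in both clusters.

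Day 115 against day 40 gave 0 of 55 past the threshold in limma (background 0.0920%), with 13 at an unadjusted p under 0.05. With the cluster term it was also 0 (background 0.196%), with 4 at an unadjusted p under 0.05. These comparisons share arrays, so their counts are not independent of each other.

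Within day 5, many of these genes also differed between the array clusters. As a description, cluster 1 minus cluster 2 among the 8 day-5 arrays was 1.50 for Eif3k, 1.27 for Eif3l, 1.18 for Eif3d, 1.04 for Eif3c, 1.03 for Eif2b5 and 1.02 for Eif2d on the log2 scale. It was -1.60 for that Eif4b probe set, -1.55 for Eif5, -1.49 for Eif4a2, -1.39 for Eif3j1 and -1.18 for Eif1ax. These differences share no array with those of day 115 against unirradiated hosts. The sign was the same in both for 48 of 55 probe sets (87.3%, against 75.9% of all tested probe sets), with a correlation of 0.91 (0.81 over all tested). In both the arrays of cluster 1 are set against those of cluster 2. The clusters were drawn by correlation of these same arrays over all tested probe sets, the factors included. Agreement is therefore in part built in and is no independent evidence. Eef2, at 0.02 and 1.14, and Eef1d, at 0.23 and 1.65, lay apart from that relation.

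**Figure D5:**
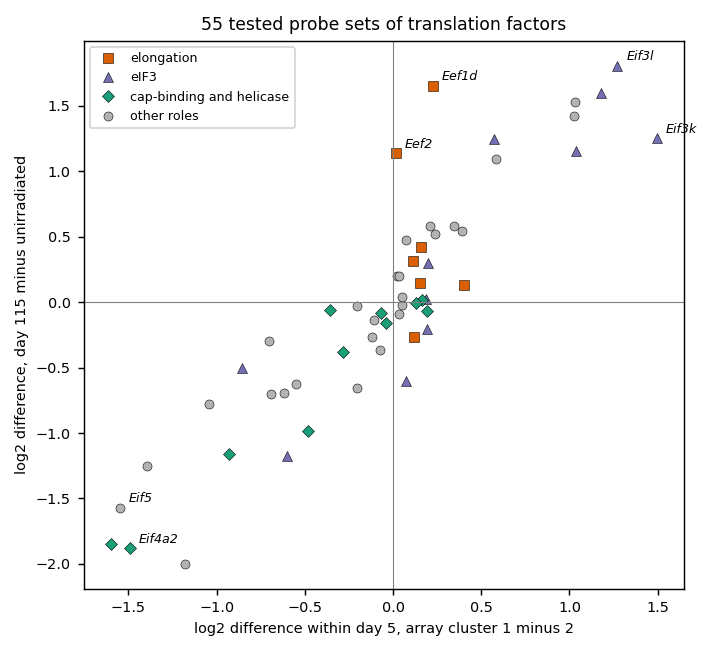
Each of the 55 tested factor probe sets by its log2 difference between array clusters 1 and 2 within day 5 (x axis) and between day 115 and unirradiated hosts (y axis), marked by role. Most lie along a rising line, while Eef2 and Eef1d lie high on the y axis near 0 on the x axis.

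Other genes of the pathway, taken from lists by role, were counted in the same way. Of 21 cytosolic aminoacyl-tRNA synthetases and partners, which load amino acids onto tRNA, 9 rose and 1 fell at day 115 against unirradiated hosts (background 15.1% higher and 12.8% lower), and 4 rose with the cluster term (background 4.42%). Their median difference was 0.45, beside 0.01 for all tested probe sets. The glutaminyl enzyme Qars averaged 775 ± 23.9 units at day 115 (SD, n = 3), against 221 ± 29.0 in unirradiated hosts (n = 4), and rose by 1.75 ± 0.26 (adjusted p = 0.000488; 1.13 under the cluster term, adjusted p = 0.00783). At day 40 it averaged 535 ± 129 (n = 4), a rise of 1.20 ± 0.25 over unirradiated hosts (adjusted p = 0.0163; 0.89 under the cluster term, adjusted p = 0.00833). Aars and Sars rose at day 115 by 1.14 and 1.19 (adjusted p = 0.00149 and 0.00196) and passed under the cluster term at 0.60 and 0.61 (adjusted p = 0.0337 and 0.0471). Rars passed under the cluster term alone, at 0.98 (adjusted p = 0.0436), and differed by -0.47 on groups alone. Against day 5, 8 of the 21 rose and 1 fell at day 115 (background 8.23% higher and 5.62% lower), and 4 rose under the cluster term (background 7.23% higher).

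In each of the other lists, of 4 to 9 tested genes, 1 to 3 genes passed at day 115 against unirradiated hosts (background 27.9%). In the integrated stress response, the program set off when eIF2 is phosphorylated, 3 of 6 rose. These were its transcription factor Atf4, by 1.39 ± 0.27 (adjusted p = 0.00249; 0.69 under the cluster term, adjusted p = 0.0596), Ddit3 by 0.64 and Trib3 by 0.37. In mTOR and MNK signalling, Pdcd4, an inhibitor of eIF4A, fell by 1.35 ± 0.35 (adjusted p = 0.0111; -0.79 under the cluster term), and Mknk2 and Tsc2 rose by 0.69 and 0.67, so 3 of 9 passed, near the background.

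The termination gene Gspt1 rose by 0.98 and the ribosome rescue gene Pelo fell by 0.75, 2 of 6 in their list. Paip2, an inhibitor of poly(A)-binding protein, fell by 1.81 ± 0.44 (adjusted p = 0.00798), 1 of 4. Dohh, the enzyme that completes hypusine on eIF5A, rose by 1.23 ± 0.29 (adjusted p = 0.00660), 1 of 4. Of 4 mitochondrial factors, Gfm1 rose by 0.49 and Mtif2 fell by 1.00. With the cluster term, 0 passed in limma in each of these 6 lists. At an unadjusted p under 0.05 there were then 2 in the stress response list, 1 in mTOR and MNK signalling, 1 in termination, 0 in poly(A) binding, 2 in hypusine and diphthamide synthesis and 0 among mitochondrial factors.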

How the data were processed

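The deposited table gives 1 linear signal intensity per probe set and array; the authors' method, not given in the sources used here, stays unknown. Gene symbols came from the platform annotation, in which 10833 of 12422 non-control probe sets have 1 symbol, 396 several and 1193 are not listed; only single symbols were used. The irradiated groups follow the titles, and each title's number names the array. Array medians of log2(signal + 16) spanned 0.088, under the limit of 0.1 for centring, so no normalization was added. One limma 3.58.1 model (R 4.3.3) held all 19 arrays with group as the factor and an intensity trend, and p-values were adjusted by Benjamini and Hochberg over the 8695 probe sets tested. It was tested on simulated data. Array clusters came from average linkage on 1 minus the Pearson correlation. A gene counts by its brightest tested probe set. Genes were named as up to 6 risen and 6 fallen per comparison past the threshold, on groups alone or with the cluster term, the brightest of each role, a panel of 18 genes, and up to 3 per other list. Eif2b2, Eif2b4, Eif3c, Eif3k and other genes outside this rule were named after their values were seen. The factors, lists and rules were chosen with earlier results of these data known. The number of arrays limits the precision. Alternatives were pseudocounts of 1 and 64, other filters, centring, quantile normalization, array cluster as a term or within clusters, the compared groups alone, the title number as a block, no trend, and each array left out. Promoter letters were searched in RefSeq windows of GRCm38.p6, 250 bases before and 50 after a start. All these searches but that for the run at the start itself, and the interaction test, were added after the data had been seen.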

Additional observations from a re-analysis of the deposited data

Results flagged for a closer look

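For 5 genes, 1 array stood far from the rest of its group, by a gap to the nearest array that exceeds Dixon's 95% critical value as a share of the group's range. There were 90 groups of 4 or more arrays examined over 30 genes, and chance marks about 1 in 20 such groups. Day-40 array 2 was lowest for Eef2 (1495 units, next array 2327, share 0.853) and for Eif4e (20.5, next 29.3, share 0.883), and highest for Eif3e (386, next 227, share 0.857). Day-40 array 1 was highest for Eif4e2 (143, next 108, share 0.946). At day 5, array 1 was highest for Eif6 (330.4, next 208, share 0.548). Without day-40 array 2, the rise of Eef2 at day 40 kept its call against day 5 and against unirradiated hosts.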

How the results depend on the processing

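Pseudocounts of 1 and 64 kept the call of all 180 values (30 named genes, 6 comparisons), and 1 uncalled value changed sign with 64. With the array cluster as a term 22 lost the call with their sign kept, and 5 gained it. The sign changed in 30, of which 29 were uncalled in both. The other 1 had been called and lost its call too, Eif3j1 at day 115 against unirradiated hosts (0.046, adjusted p = 0.926). Factor probe sets past the threshold numbered 27 at day 115 against unirradiated hosts, 1 with the cluster term and 17 to 23 when 1 array was left out, the fewest without day-115 array 2. At day 115 against day 5 they numbered 12, 0 within cluster 1, 2 with the title number as a block and 4 to 16 in leave-outs, the fewest without day-115 array 2. At day 115 against day 40 leave-outs gave 0 to 1. For day 40 against day 5 the count of 1 became 6 with the term, 0 within cluster 1, 2 within cluster 2, 0 from those groups alone, 0 with the block and 0 to 1 in leave-outs. Against unirradiated hosts the count of 1 at day 40 became 0 without the filter, 2 within cluster 2, 5 with the block and 0 to 1 in leave-outs. The count of 0 at day 5 became 1 with quantile normalization, 1 without the trend and 0 to 1 in leave-outs, and that probe set was of Eif2b1. With the block it became 18, where day-5 arrays 5 to 8 have no unirradiated array of their number. Shares of all tested probe sets were given above only for fits on groups alone, with the cluster term and within clusters. The counts of the other fits, the block and leave-outs included, stand without a background. The medians over factor probe sets in leave-outs lay within -0.11 to 0.06. Deviations of same-numbered arrays correlated between -0.67 and 0.76. Both ends came from day 40 against day 5, where numbers 1, 2 and 4 gave 0.64, 0.62 and 0.76 and number 3 gave -0.67. There the arrays of numbers 1, 2 and 4 share an array cluster and those of number 3 do not. In the other comparisons the correlations lay between -0.28 and 0.26. The range therefore does not decide whether title numbers pair arrays, and no shared source is known here. Fits within cluster 1 against unirradiated hosts and within cluster 2 for day 115 could not be made, as no array is there, and the stricter filter left out 36 of the 180 values. Probe sets near the filter level, such as those of Eif4e and Eif5a, are limited by background.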
